A study of Homo sapiens with 19 samples.

Results

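Messenger RNA levels of 33 genes that serve homologous recombination and the Fanconi anaemia pathway were followed in an established human neuroblastoma cell line. The line, SHEP TET21N, carries a MYCN transgene which doxycycline switches off. The genes were taken by symbol from the deposited table of read counts, which lists 23367 genes. All 33 symbols were found, and all 33 were among the 14793 genes with enough reads to be tested. The libraries came from MYCN-high cells, grown without doxycycline, and from MYCN-low cells, grown with it, so the state and the antibiotic cannot be told apart. In both states there were untreated cells (no doxorubicin), cells exposed to doxorubicin at 0.1 µg/ml for 72 h, and cells collected 3, 8 and 14 days after the drug had been washed out. Each of the 10 groups had 2 libraries, replicates B and C, except MYCN-low cells at 14 days, which had 1 library (replicate B). The line, its transgene and its culture medium were shared by all groups. Each state had 1 untreated group, so the drug and the time in culture cannot be told apart. The replicates are described as biological duplicates, and the p-values below measure the spread between such duplicates of 1 line.

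Doxorubicin, an anthracycline, holds topoisomerase II in its cleaved complex with DNA, and double-strand breaks result. In homologous recombination a break is resected to a single-stranded tail, which BRCA2 and its partners prepare for strand invasion. RAD54 proteins then help the tail invade the sister chromatid, and helicases and nucleases undo or cut the joined molecules. The Fanconi anaemia pathway removes crosslinks between the strands: a core complex attaches ubiquitin to FANCD2 and FANCI, which then direct nucleases and recombination to the lesion. Both processes are used mainly in S and G2 phase, when a sister chromatid is present, and many of their genes are transcribed with the cell cycle.

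MYCN separated the libraries as labelled. Levels are given as CPM, read counts scaled to a common library size. MYCN was at 675 and 690.4 CPM in untreated MYCN-high cells, at 633 and 1416 at 72 h, and at 604 and 765, 696 and 723 and 672 and 594 at 3, 8 and 14 days, with replicate B first and replicate C second here and below. In MYCN-low cells it was at 30.7 and 19.1, 21.1 and 20.04, 21.7 and 29.3, 22.1 and 24.9 and 13.5 CPM at the same times. The lowest MYCN-high library was thus far above the highest MYCN-low library. Total counts ran from 16547663 to 27664604 per library. Of 8 mesenchymal neuroblastoma markers all were detected, with VIM between 748 and 2655 CPM. Of the adrenergic markers, HAND2 was at 45.99 to 325 CPM, ISL1 at 1.32 to 6.35 and GATA3 at 0.89 to 2.75 CPM, whereas PHOX2A had 0 counts in every library and DBH and TH never passed 2 counts. Of 5 blood markers 3 and of 4 epithelial markers 3 stayed under 1 CPM in every library, the exceptions being PTPRC and CD68, at up to 2.04 and 79.7 CPM, and EPCAM, at up to 2.02 CPM. Reads of the added ERCC control RNAs ran from 2730 to 110681 per library and differed between duplicates, with 2730 and 39507 in MYCN-high replicates B and C at 72 h.

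In untreated cells MYCN-high libraries held more of 10 of the 33 messages than MYCN-low libraries and less of 1 (edgeR's quasi-likelihood test, adjusted p under 0.05), against 16.5% of all tested genes higher and 18.6% lower. The 10 were BRCA1, RBBP8, DNA2, BLM, PALB2, RAD51C, XRCC2, RAD54B, FANCM and UBE2T, with log2 differences from 0.58 (RAD54B) to 1.51 (XRCC2). The 1 lower gene was MUS81, the catalytic part of a nuclease that cuts joined DNA molecules, at 22.9 and 16.2 CPM in MYCN-high and 55.00 and 34.1 CPM in MYCN-low cells. Its log2 difference was -1.19 ± 0.25 (± SE, as for all log2 values below). The median over the 33 genes was 0.50 on the log2 scale and that over all tested genes was -0.04. The count depended on single libraries: it was 2 without MYCN-low replicate B, 14 without MYCN-low replicate C and 4 without either MYCN-high replicate. RBBP8, RAD51C and MUS81 were called in all 4 of these fits. Over all tested genes the number called also fell without MYCN-low replicate B and rose without MYCN-low replicate C. In the untreated MYCN-low cells replicate C had the higher level for 27 of the 33 genes, by a median of 0.44 on the log2 scale.

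After 72 h of doxorubicin most of the 33 messages had fallen in both states. In MYCN-high cells 29 were lower than in untreated cells and 0 higher, against 17.9% of all tested genes lower and 18.3% higher, and the median log2 change was -2.90. In MYCN-low cells 28 were lower and 0 higher, against 12.1% and 10.2% of all tested genes, with a median of -2.86, while the median over all tested genes was 0.03 in MYCN-high and 0.01 in MYCN-low cells. The same 27 genes were lower in both states, an overlap that was not counted over all genes. FANCC and FANCL, 2 subunits of the Fanconi core complex, were lower in MYCN-high cells only by this threshold, MUS81 in MYCN-low cells only, and PALB2, RAD51C and FANCF in neither. The 29 calls in MYCN-high cells held without each of the 4 libraries in turn, and 24 of the 28 calls in MYCN-low cells did so. The others were RBBP8 (given below), RMI1, which was lost without untreated or treated replicate C, FANCE, which was lost without treated replicate C, and FANCM, which was lost without treated replicate B. These are levels relative to all other messages. With libraries scaled by their ERCC reads instead, the median of all genes moved to 2.37 in MYCN-high and 0.52 in MYCN-low cells. Then 8 of the 29 MYCN-high and 0 of the 28 MYCN-low genes had a change above 0, and no gene of the 33 was called. In MYCN-high cells the median of the 33 then stood at -3.39 relative to that of all genes. In RNA from whole cultures, fewer cells in S and G2 phase and less of each message per cell cannot be told apart.

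**Figure D1:**
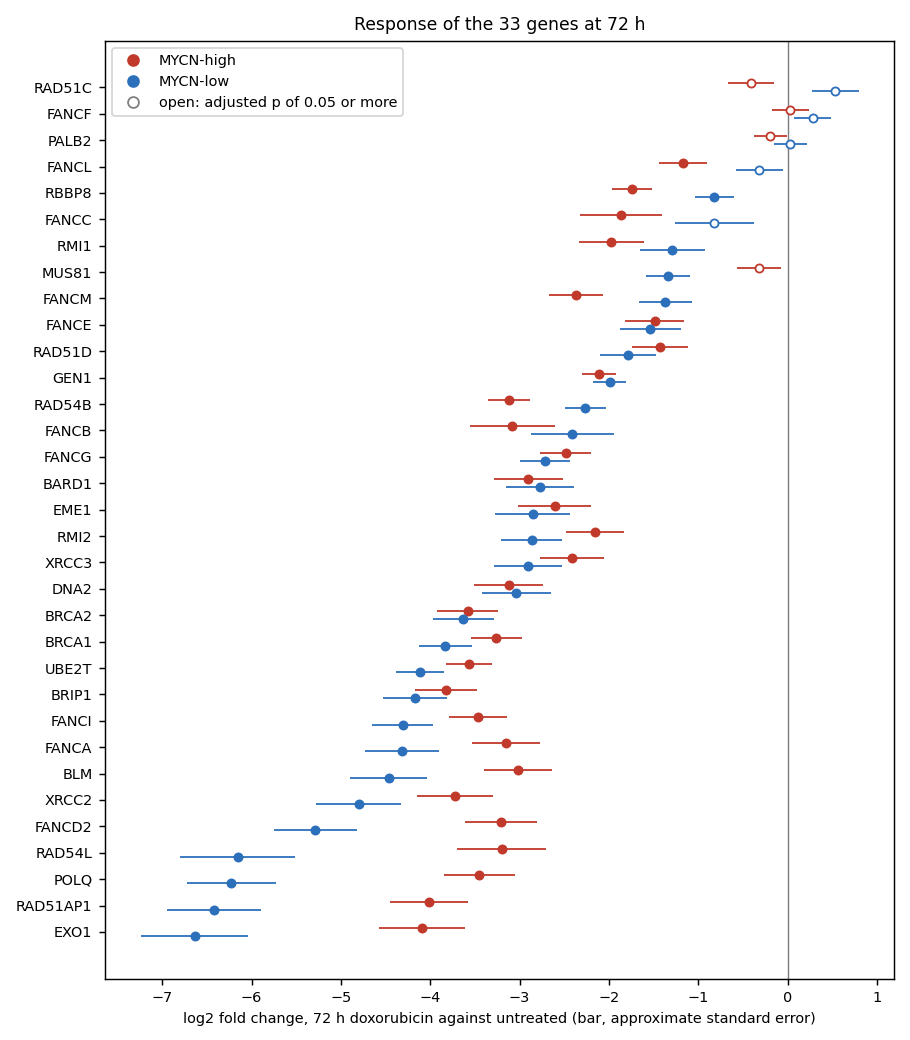
Log2 fold change at 72 h against untreated cells for each of the 33 genes (x axis) in MYCN-high (red) and MYCN-low (blue) cells, with bars for the approximate standard error and open points for genes that did not pass the adjusted p of 0.05. RAD51C, FANCF and PALB2 lie near 0 in both states, and EXO1, RAD51AP1, POLQ and RAD54L lie farther below 0 in MYCN-low than in MYCN-high cells; under ERCC scaling 8 of the 29 MYCN-high genes change sign.

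Because the genes fell together, the sequences around their transcription starts are shown for a few genes that fell and for those that did not pass the threshold. RefSeq promoter windows of 300 bases (250 before and 50 after the start, GRCh38.p14) were used for 29 of the 33 genes, as 38 windows. The stretches below cover 150 bases before to 30 after the start on the gene's strand, and capitals mark exact matches, on either strand, to an E2F motif (TTCCCGC or TTGGCGC or TTCGCGC or TTGCCGC) or to a cell cycle homology region, CHR (TTTGAA or TTCGAA). The first 4 genes, chosen after their values were seen, fell in both states and are 4 of the 5 whose responses were called different at 72 h, and the last 3 are the genes that did not pass the threshold at 72 h in either state.
EXO1: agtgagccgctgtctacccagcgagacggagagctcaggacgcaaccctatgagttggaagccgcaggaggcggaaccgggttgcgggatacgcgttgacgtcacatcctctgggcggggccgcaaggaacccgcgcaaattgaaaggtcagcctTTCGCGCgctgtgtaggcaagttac
RAD51AP1: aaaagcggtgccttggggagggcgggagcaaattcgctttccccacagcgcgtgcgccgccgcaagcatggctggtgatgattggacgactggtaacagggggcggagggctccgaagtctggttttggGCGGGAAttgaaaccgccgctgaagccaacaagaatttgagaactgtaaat
POLQ: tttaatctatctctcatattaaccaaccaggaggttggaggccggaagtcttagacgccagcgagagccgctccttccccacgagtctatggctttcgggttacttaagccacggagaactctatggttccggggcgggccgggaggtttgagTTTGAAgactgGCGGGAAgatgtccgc
FANCD2: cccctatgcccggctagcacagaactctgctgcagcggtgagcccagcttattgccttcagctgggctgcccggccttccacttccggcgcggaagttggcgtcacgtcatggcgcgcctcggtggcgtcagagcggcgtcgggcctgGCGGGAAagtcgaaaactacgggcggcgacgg
PALB2: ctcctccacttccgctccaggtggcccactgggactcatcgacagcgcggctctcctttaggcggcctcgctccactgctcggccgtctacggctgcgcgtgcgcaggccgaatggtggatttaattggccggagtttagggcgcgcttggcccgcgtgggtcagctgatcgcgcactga
RAD51C: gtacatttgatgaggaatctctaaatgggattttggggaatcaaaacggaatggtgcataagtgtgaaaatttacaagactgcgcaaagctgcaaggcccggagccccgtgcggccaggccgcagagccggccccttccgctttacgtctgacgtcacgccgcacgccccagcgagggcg
FANCF: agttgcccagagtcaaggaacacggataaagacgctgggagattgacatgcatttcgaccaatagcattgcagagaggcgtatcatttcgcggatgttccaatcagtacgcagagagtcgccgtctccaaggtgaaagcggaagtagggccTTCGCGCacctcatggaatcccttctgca

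EXO1 carried TTCGCGC from base 6 after the start, RAD51AP1 carried GCGGGAA, the reverse complement of TTCCCGC, from base -21, and FANCD2 carried it from base -2. POLQ carried TTTGAA from base 4 and, without overlap, GCGGGAA from base 15. BRCA2 and UBE2T, whose changes at 72 h in MYCN-high cells were -3.58 and -3.57 against -3.21 for FANCD2, had no E2F match in their 300-base windows. No such match stood in the stretches of PALB2 and RAD51C, but FANCF, which was not called against untreated cells at any time, carried TTCGCGC from base 2. An E2F motif stood in 20 of 30 of the 300-base windows (66.7%) of genes lower in both states. Of all 35114 windows 13% held such a motif. The 30 windows cover 23 genes. DNA2, RAD54B, RMI2 and FANCI, also lower in both states, had no window in this comparison. Among the genes not lower in both states an E2F motif stood in 4 of 8 windows (50%), those of FANCC, FANCL and FANCF. FANCC and FANCL had been called lower at 72 h in MYCN-high cells, and PALB2, RAD51C and MUS81 had no E2F match. The CHR motif stood in 13.3% of the windows of genes lower in both states and in 12.5% of those of the other genes, against 16.4% of all windows. In the same order the CCAAT box stood in 40% and 37.5% against 34.6%, and the E-box CACGTG in 3.33% and 12.5% against 7.26%. These matches describe the letters only, and several windows belong to the same gene and overlap.

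Among the genes of end resection and its control, 6 of 6 were lower at 72 h in both states. BRCA1, the ubiquitin ligase that promotes resection, was at 197 and 209.6 CPM untreated, 15.4 and 27.2 at 72 h, 73.7 and 71.2 at 3 days, 151 and 184 at 8 days and 194 and 161 at 14 days in MYCN-high cells. BRCA1 in MYCN-low cells was at 88.96 and 161 CPM untreated, 8.76 and 8.79 at 72 h, 12.2 and 14.5 at 3 days, 30.2 and 37.1 at 8 days and 31.01 at 14 days. All treated libraries lay below the untreated ones of their state, and the MYCN-high libraries lay above the MYCN-low libraries at every time. BRCA1 changed by -3.26 ± 0.29 and -3.83 ± 0.299 on the log2 scale at 72 h in MYCN-high and MYCN-low cells, and its change at 14 days was -0.198 ± 0.26 and -2.01 ± 0.36. BARD1, its partner, was at 53.04 and 44.8 CPM untreated, 3.097 and 10.1 at 72 h, 11.8 and 14.8 at 3 days, 28.9 and 42.2 at 8 days and 45.3 and 42.95 at 14 days in MYCN-high cells. BARD1 in MYCN-low cells was at 60.1 and 66.98 CPM untreated, 7.16 and 11.5 at 72 h, 6.47 and 6.98 at 3 days, 13.4 and 11.3 at 8 days and 13.2 at 14 days. Untreated MYCN-low libraries lay above the MYCN-high ones in BARD1, a difference that was not called. The MYCN-low library at 14 days lay below the MYCN-high ones. The BARD1 responses differed by 1.903 ± 0.51 at 8 days and 2.12 ± 0.59 at 14 days.

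EXO1, an exonuclease that digests DNA ends over long stretches, had the largest fall of the 33 at 72 h in both states. EXO1 was at 136 and 130.1 CPM untreated, 3.48 and 12.2 at 72 h, 37.1 and 40.3 at 3 days, 82.3 and 123 at 8 days and 139 and 98.3 at 14 days in MYCN-high cells. In the MYCN-low libraries EXO1 was at 46.8 and 79.8 CPM untreated, 0.925 and 0.338 at 72 h, 2.26 and 1.82 at 3 days, 8.69 and 14.7 at 8 days and 12.8 at 14 days. Every MYCN-low library at 72 h and 3 days was below the lowest MYCN-high library. The MYCN-low libraries at 72 h held 19 and 7 EXO1 reads. The log2 change was -4.09 ± 0.48 in MYCN-high and -6.64 ± 0.601 in MYCN-low cells, with a difference between the responses of 2.55 ± 0.74 (edgeR adjusted p = 0.0398). Without MYCN-high replicate B at 72 h that difference was called, and without any other single library it was not. At 3 days the difference was 3.16 ± 0.65 and held in all 8 such fits.

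DNA2, the nuclease and helicase of the other long-range resection route, was at 86.5 and 91.9 CPM untreated, 6.87 and 13.6 at 72 h, 24.4 and 24.97 at 3 days, 58.6 and 88.8 at 8 days and 90.2 and 77.5 at 14 days in MYCN-high cells. DNA2 in MYCN-low cells was at 33.6 and 59.4 CPM untreated, 3.41 and 7.92 at 72 h, 4.43 and 5.72 at 3 days, 10.5 and 9.62 at 8 days and 9.88 at 14 days. DNA2 libraries of the states overlapped at 72 h and were apart at 3, 8 and 14 days. BLM, the helicase that works with DNA2 and also dissolves joined molecules, was at 93.6 and 85.7 CPM untreated, 6.11 and 16.03 at 72 h, 21.8 and 29.1 at 3 days, 62.95 and 74.3 at 8 days and 83.3 and 68.7 at 14 days in MYCN-high cells. BLM in MYCN-low cells was at 38.1 and 55.2 CPM untreated, 1.801 and 2.42 at 72 h, 4.71 and 2.78 at 3 days, 6.63 and 10.6 at 8 days and 6.52 at 14 days. Its MYCN-high libraries were above the MYCN-low ones at all 5 times, and its responses differed by 1.82 ± 0.52, 2.04 ± 0.503 and 2.601 ± 0.598 at 3, 8 and 14 days. RBBP8, which encodes CtIP, the factor that starts resection, was at 180.2 and 189.5 CPM untreated, 58.03 and 52.6 at 72 h, 83.4 and 90.7 at 3 days, 139 and 169 at 8 days and 171 and 177 at 14 days in MYCN-high cells. RBBP8 in MYCN-low cells was at 69.7 and 117 CPM untreated, 53.9 and 51.9 at 72 h, 46.2 and 49.5 at 3 days, 53.7 and 80.2 at 8 days and 94.01 at 14 days. Its change at 72 h was the smallest of this group, -1.74 ± 0.22 in MYCN-high and -0.82 ± 0.22 in MYCN-low cells. The MYCN-low call was kept without untreated replicate B, lost without either replicate at 72 h, and lost without untreated replicate C, when the change was -0.42. At 14 days the MYCN-low library of RBBP8 lay between the 2 untreated ones.

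Of the 7 mediator genes, which act between resection and strand invasion, 5 were lower at 72 h in both states. BRCA2, which prepares the single-stranded tail for invasion, was at 109 and 106 CPM untreated, 6.28 and 11.7 at 72 h, 33.4 and 32.4 at 3 days, 78.3 and 81.1 at 8 days and 109.5 and 70.7 at 14 days in MYCN-high cells. BRCA2 in MYCN-low cells was at 49.7 and 78.7 CPM untreated, 4.48 and 5.89 at 72 h, 8.82 and 4.81 at 3 days, 13.1 and 13.8 at 8 days and 19.8 at 14 days. The falls at 72 h were nearly equal, -3.58 ± 0.34 and -3.63 ± 0.34, and the responses were called different at 3 and 8 days, by 1.53 ± 0.44 and 1.83 ± 0.43. XRCC2, which acts in the same step, was at 168 and 203 CPM untreated, 6.19 and 21.96 at 72 h, 45.9 and 53.9 at 3 days, 114 and 165 at 8 days and 130.3 and 152 at 14 days in MYCN-high cells. XRCC2 in MYCN-low cells was at 56.1 and 74.04 CPM untreated, 2.48 and 2.17 at 72 h, 3.62 and 3.895 at 3 days, 12.3 and 20.4 at 8 days and 14.1 at 14 days. The MYCN-high libraries of XRCC2 were above the MYCN-low ones at every time, and the difference between responses was called at 3 days alone, at 2.22 ± 0.57.

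RAD51AP1, which stimulates strand invasion, was at 101 and 93.8 CPM untreated, 3.05 and 9.04 at 72 h, 29.2 and 28.9 at 3 days, 59.7 and 91.6 at 8 days and 121 and 96.7 at 14 days in MYCN-high cells. RAD51AP1 in MYCN-low cells was at 55.4 and 95.3 CPM untreated, 0.535 and 1.21 at 72 h, 2.13 and 2.68 at 3 days, 9.28 and 14.8 at 8 days and 13.04 at 14 days. The untreated libraries of the states overlapped, and all later MYCN-high libraries were above the MYCN-low ones. The MYCN-low libraries at 72 h held 11 and 25 RAD51AP1 reads. RAD51AP1 and FANCD2 were the 2 genes whose responses differed at all 4 times, and for RAD51AP1 the difference was 2.405 ± 0.65, 3.22 ± 0.58, 2.28 ± 0.55 and 2.69 ± 0.64. XRCC3, which pairs with RAD51C, was at 18.8 and 19.9 CPM untreated, 1.95 and 5.36 at 72 h, 7.61 and 8.36 at 3 days, 13.2 and 16.4 at 8 days and 19.6 and 18.2 at 14 days in MYCN-high cells. XRCC3 in MYCN-low cells was at 12.3 and 12.5 CPM untreated, 1.801 and 1.497 at 72 h, 2.53 and 1.42 at 3 days, 2.505 and 2.96 at 8 days and 2.29 at 14 days. XRCC3 stayed at or under 2.96 CPM in every treated MYCN-low library, with differences between responses of 1.78 ± 0.49 and 2.398 ± 0.58 at 8 and 14 days. RAD51D, which works in a complex with XRCC2, ran from 3.56 to 12.5 CPM in MYCN-high and from 2.29 to 12.8 CPM in MYCN-low libraries, and its difference between responses was not called at any time.

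PALB2 and RAD51C did not pass the threshold against untreated cells at any time in either state. PALB2, which joins BRCA1 to BRCA2, was at 39.6 and 47.3 CPM untreated, 35.7 and 40.4 at 72 h, 31.3 and 36.9 at 3 days, 40.2 and 49.7 at 8 days and 39.8 and 44.9 at 14 days in MYCN-high cells. PALB2 in MYCN-low cells was at 22.9 and 29.4 CPM untreated, 29.7 and 23.7 at 72 h, 21.9 and 21.8 at 3 days, 22.6 and 24.5 at 8 days and 27.6 at 14 days. The MYCN-high libraries were above the MYCN-low ones at each time, and the treated libraries of each state overlapped the untreated ones except at 3 days. RAD51C, which is shared by the complexes of XRCC2 and of XRCC3, was at 42.4 and 40.1 CPM untreated, 33.9 and 28.3 at 72 h, 31.7 and 30.5 at 3 days, 31.2 and 28.96 at 8 days and 40.04 and 37.3 at 14 days in MYCN-high cells. RAD51C in MYCN-low cells was at 12.6 and 27.7 CPM untreated, 32.96 and 25.7 at 72 h, 20.2 and 19.5 at 3 days, 18.9 and 19.3 at 8 days and 16.7 at 14 days. Its untreated MYCN-low libraries differed more than 2-fold, and its change at 72 h was 0.54 ± 0.26, reaching 1.19 without untreated replicate C, where it passed the threshold, and 0.08 without replicate B.

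Both RAD54 genes, which encode motor proteins that help the tail find and open the partner DNA, were lower at 72 h in both states. RAD54L was at 22.1 and 21.8 CPM untreated, 0.976 and 3.83 at 72 h, 5.11 and 5.93 at 3 days, 15.7 and 19.1 at 8 days and 19.02 and 16.97 at 14 days in MYCN-high cells. RAD54L in MYCN-low cells was at 18.1 and 17.3 CPM untreated, 0.438 and 0.0483 at 72 h, 0.362 and 0.253 at 3 days, 1.47 and 2.96 at 8 days and 3.56 at 14 days, and the 2 libraries at 72 h rested on 9 reads and 1 read. The difference between its responses was 2.95 ± 0.82 at 72 h, 3.82 ± 0.78 at 3 days and 2.63 ± 0.65 at 8 days. RAD54B was at 48.4 and 53.3 CPM untreated, 5.600 and 6.12 at 72 h, 17.01 and 16.1 at 3 days, 35.01 and 47.00 at 8 days and 57.4 and 49.8 at 14 days in MYCN-high cells. RAD54B in MYCN-low cells was at 26.8 and 40.9 CPM untreated, 8.08 and 6.04 at 72 h, 7.96 and 8.35 at 3 days, 10.6 and 11.6 at 8 days and 10.6 at 14 days. RAD54B showed the opposite order at 72 h, with a change of -3.12 ± 0.23 in MYCN-high and -2.26 ± 0.23 in MYCN-low cells, a difference that was not called (-0.85 ± 0.31, edgeR adjusted p = 0.0894). By 8 and 14 days its MYCN-high response was the smaller one, by 1.302 ± 0.303 and 1.75 ± 0.35.

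Of the 5 genes that process joined molecules, 4 were lower at 72 h in MYCN-high and 5 in MYCN-low cells. GEN1, a resolvase, was at 62.6 and 55.5 CPM untreated, 15.4 and 11.9 at 72 h, 24.2 and 24.5 at 3 days, 41.98 and 45.7 at 8 days and 51.2 and 46.4 at 14 days in MYCN-high cells. GEN1 in MYCN-low cells was at 43.1 and 58.5 CPM untreated, 12.4 and 13.2 at 72 h, 13.5 and 15.2 at 3 days, 17.8 and 19.9 at 8 days and 15.2 at 14 days. Its states overlapped at 72 h and were apart at 3, 8 and 14 days, and its responses differed by 0.999 ± 0.26 and 1.46 ± 0.29 at 8 and 14 days. EME1, the partner of MUS81, was at 35.4 and 37.5 CPM untreated, 3.14 and 8.85 at 72 h, 10.5 and 18.4 at 3 days, 31.1 and 31.2 at 8 days and 33.3 and 30.8 at 14 days in MYCN-high cells. EME1 in MYCN-low cells was at 27.8 and 31.9 CPM untreated, 5.696 and 2.56 at 72 h, 2.71 and 3.996 at 3 days, 5.16 and 5.58 at 8 days and 6.57 at 14 days. Its libraries of the states overlapped at 72 h and were apart, with MYCN-high above, at the other 4 times, and its responses were called different at 8 days alone (2.25 ± 0.55). MUS81 itself was at 22.9 and 16.2 CPM untreated, 13.4 and 17.9 at 72 h, 14.2 and 14.1 at 3 days, 16.4 and 17.6 at 8 days and 18.1 and 20.4 at 14 days in MYCN-high cells. MUS81 in MYCN-low cells was at 55.00 and 34.1 CPM untreated, 19.8 and 15.4 at 72 h, 20.5 and 15.7 at 3 days, 19.7 and 17.2 at 8 days and 14.4 at 14 days. MUS81 thus came down in MYCN-low cells to the range of the MYCN-high libraries, with a change at 72 h of -1.34 ± 0.25 in MYCN-low and -0.32 ± 0.25 in MYCN-high cells. The difference between responses was called at 14 days (1.61 ± 0.41, edgeR adjusted p = 0.0268). That call held without MYCN-high untreated replicate B or MYCN-low untreated replicate C and was lost without each of the other 4 libraries. MUS81 and EME1 act as 1 enzyme, and in MYCN-high cells EME1 changed by -2.61 ± 0.41 while MUS81 did not pass the threshold.

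RMI2, a small subunit of the complex in which BLM dissolves joined molecules, was at or under 9.12 CPM in every library. RMI2 was at 6.58 and 8.33 CPM untreated, 1.57 and 1.77 at 72 h, 6.47 and 5.75 at 3 days, 7.72 and 9.12 at 8 days and 8.19 and 8.11 at 14 days in MYCN-high cells. RMI2 in MYCN-low cells was at 6.32 and 7.14 CPM untreated, 0.779 and 1.06 at 72 h, 1.67 and 1.52 at 3 days, 1.82 and 3.52 at 8 days and 2.19 at 14 days. The MYCN-high libraries at 72 h held 37 and 37 RMI2 reads. Those at 3 days stood just under the lowest untreated one, and the change there was -0.29 ± 0.299 against -2.07 ± 0.32 in MYCN-low cells. RMI1, its partner, ran from 3.25 to 19.7 CPM in MYCN-high and from 2.53 to 11.5 CPM in MYCN-low libraries, and its responses were not called different at any time.

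Of the 8 genes of the Fanconi core complex, which forms the ubiquitin ligase of the pathway and its DNA-binding arm, 7 were lower at 72 h in MYCN-high and 5 in MYCN-low cells. FANCA was at 50.3 and 46.5 CPM untreated, 2.503 and 8.42 at 72 h, 13.9 and 17.9 at 3 days, 35.3 and 41.2 at 8 days and 40.04 and 40.2 at 14 days in MYCN-high cells. FANCA in MYCN-low cells was at 55.1 and 42.7 CPM untreated, 2.14 and 2.75 at 72 h, 2.31 and 1.67 at 3 days, 5.11 and 6.72 at 8 days and 6.77 at 14 days. The untreated libraries of the states overlapped, and the responses differed by 3.000 ± 0.53, 2.702 ± 0.502 and 2.58 ± 0.59 at 3, 8 and 14 days. FANCG, which binds FANCA, was at 20.3 and 21.2 CPM untreated, 2.503 and 4.93 at 72 h, 8.21 and 7.95 at 3 days, 16.7 and 22.7 at 8 days and 23.5 and 21.9 at 14 days in MYCN-high cells. FANCG in MYCN-low cells was at 30.2 and 23.3 CPM untreated, 4.62 and 3.52 at 72 h, 3.303 and 3.14 at 3 days, 5.403 and 5.58 at 8 days and 5.602 at 14 days. FANCG was higher in untreated MYCN-low than in untreated MYCN-high libraries and lower from 3 days on, and its differences between responses at 8 and 14 days, 2.21 ± 0.37 and 2.38 ± 0.43, held without any 1 library. FANCE, which links the complex to FANCD2, was at 13.9 and 15.4 CPM untreated, 3.52 and 6.94 at 72 h, 6.14 and 7.77 at 3 days, 11.3 and 13.03 at 8 days and 17.8 and 16.97 at 14 days in MYCN-high cells. FANCE in MYCN-low cells was at 13.8 and 7.82 CPM untreated, 4.33 and 3.09 at 72 h, 2.49 and 2.83 at 3 days, 3.83 and 2.76 at 8 days and 2.597 at 14 days. Its MYCN-high libraries at 14 days lay above the untreated ones with a change that was not called, 0.25 ± 0.32, and its MYCN-low library at 14 days was near the lowest of that state.

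FANCL, the catalytic ligase subunit, was at 39.5 and 41.2 CPM untreated, 15.9 and 20.00 at 72 h, 26.96 and 26.3 at 3 days, 42.8 and 51.6 at 8 days and 38.98 and 43.96 at 14 days in MYCN-high cells. FANCL in MYCN-low cells was at 19.4 and 34.2 CPM untreated, 16.8 and 26.4 at 72 h, 15.9 and 22.9 at 3 days, 20.5 and 20.99 at 8 days and 15.4 at 14 days. The MYCN-high libraries at 72 h lay below both untreated ones, while the MYCN-low libraries overlapped their untreated ones, and the difference between the responses was not called (-0.85 ± 0.37, edgeR adjusted p = 0.146). FANCC was at 10.97 and 12.6 CPM untreated, 1.57 and 4.93 at 72 h, 4.62 and 4.75 at 3 days, 8.32 and 12.4 at 8 days and 11.2 and 9.62 at 14 days in MYCN-high cells. FANCC in MYCN-low cells was at 9.56 and 9.97 CPM untreated, 6.62 and 4.44 at 72 h, 5.34 and 2.53 at 3 days, 5.99 and 3.45 at 8 days and 4.68 at 14 days. The FANCC responses at 72 h, -1.86 ± 0.45 and -0.82 ± 0.44, were not called different either (difference -1.04 ± 0.62, edgeR adjusted p = 0.285). FANCF, an adaptor of the complex encoded by a gene without introns, was at 24.2 and 27.5 CPM untreated, 31.01 and 21.7 at 72 h, 27.9 and 22.7 at 3 days, 29.3 and 31.5 at 8 days and 25.8 and 32.5 at 14 days in MYCN-high cells. FANCF in MYCN-low cells was at 17.03 and 21.1 CPM untreated, 20.5 and 25.8 at 72 h, 27.8 and 25.8 at 3 days, 22.3 and 22.2 at 8 days and 20.9 at 14 days. No FANCF change against untreated cells passed the threshold, and these ran from -0.03 to 0.49 on the log2 scale. FANCB ran from 1.103 to 15.2 CPM in MYCN-high and from 0.759 to 14.6 CPM in MYCN-low libraries. FANCM, the translocase that anchors the complex on DNA, ran from 4.16 to 27.2 and from 3.65 to 15.3 CPM, and neither gene was called in a difference between responses.

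FANCD2, FANCI and UBE2T, the substrate pair and the ubiquitin-conjugating enzyme of the pathway, were all lower at 72 h in both states. FANCD2 was at 89.4 and 95.6 CPM untreated, 3.86 and 16.2 at 72 h, 23.97 and 31.1 at 3 days, 78.4 and 81.7 at 8 days and 91.1 and 82.3 at 14 days in MYCN-high cells. FANCD2 in MYCN-low cells was at 81.05 and 85.8 CPM untreated, 2.09 and 2.17 at 72 h, 3.12 and 2.93 at 3 days, 10.9 and 12.00 at 8 days and 11.9 at 14 days. Untreated cells of the states were not called different in FANCD2 (0.15 ± 0.37, edgeR adjusted p = 0.787). It changed by -3.21 ± 0.41 and -5.29 ± 0.47 at 72 h in MYCN-high and MYCN-low cells, and the responses at the 4 times differed by 2.08 ± 0.57, 3.03 ± 0.56, 2.65 ± 0.53 and 2.71 ± 0.62. FANCI was at 235 and 227 CPM untreated, 11.8 and 30.1 at 72 h, 71.1 and 83.3 at 3 days, 184 and 201 at 8 days and 255 and 226 at 14 days in MYCN-high cells. FANCI in MYCN-low cells was at 132 and 192 CPM untreated, 8.91 and 7.49 at 72 h, 8.69 and 9.56 at 3 days, 25.8 and 33.2 at 8 days and 27.96 at 14 days. FANCI responses were not called different at 72 h (0.84 ± 0.43, edgeR adjusted p = 0.214) and differed by 2.57 ± 0.43, 2.198 ± 0.42 and 2.596 ± 0.49 afterwards. UBE2T was at 119.5 and 98.5 CPM untreated, 7.42 and 11.00 at 72 h, 26.9 and 30.8 at 3 days, 62.1 and 59.8 at 8 days and 98.98 and 91.8 at 14 days in MYCN-high cells. UBE2T in MYCN-low cells was at 52.8 and 73.5 CPM untreated, 4.43 and 2.85 at 72 h, 5.75 and 7.94 at 3 days, 11.98 and 13.5 at 8 days and 13.7 at 14 days. It was the 1 gene of the 33 still called lower in MYCN-high cells at 8 days (-0.84 ± 0.23, edgeR adjusted p = 0.0364), a call that was lost without any 1 of the 4 libraries and that had the opposite sign under ERCC scaling.

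BRIP1, the helicase bound by BRCA1, was at 182 and 147 CPM untreated, 6.24 and 17.1 at 72 h, 39.5 and 42.3 at 3 days, 100.0 and 137 at 8 days and 156 and 113 at 14 days in MYCN-high cells. BRIP1 in MYCN-low cells was at 204 and 273 CPM untreated, 12.8 and 13.7 at 72 h, 17.4 and 17.6 at 3 days, 30.5 and 31.7 at 8 days and 29.1 at 14 days. Untreated MYCN-low libraries had more BRIP1 than untreated MYCN-high libraries, and from 3 days on MYCN-low libraries had less, with differences between responses of 1.76 ± 0.45, 2.46 ± 0.44 and 2.75 ± 0.52. POLQ encodes polymerase theta, which joins resected ends at short homologies and so competes with recombination. POLQ was at 95.8 and 88.5 CPM untreated, 4.497 and 12.4 at 72 h, 36.04 and 33.9 at 3 days, 59.8 and 73.5 at 8 days and 91.2 and 65.5 at 14 days in MYCN-high cells. POLQ in MYCN-low cells was at 39.1 and 66.9 CPM untreated, 0.438 and 0.966 at 72 h, 2.08 and 2.38 at 3 days, 9.13 and 12.99 at 8 days and 13.1 at 14 days. MYCN-high libraries of POLQ were above the MYCN-low ones at every time. The MYCN-low libraries at 72 h held 9 and 20 POLQ reads. POLQ changed by -3.45 ± 0.396 in MYCN-high and by -6.23 ± 0.498 in MYCN-low cells at 72 h. The difference was 2.77 ± 0.61 (edgeR adjusted p = 0.0134), the smallest adjusted p of this comparison among the 33. It was lost without MYCN-low replicate B or MYCN-high replicate C at 72 h (edgeR adjusted p 0.0762 and 0.0567).

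**Figure D2:**
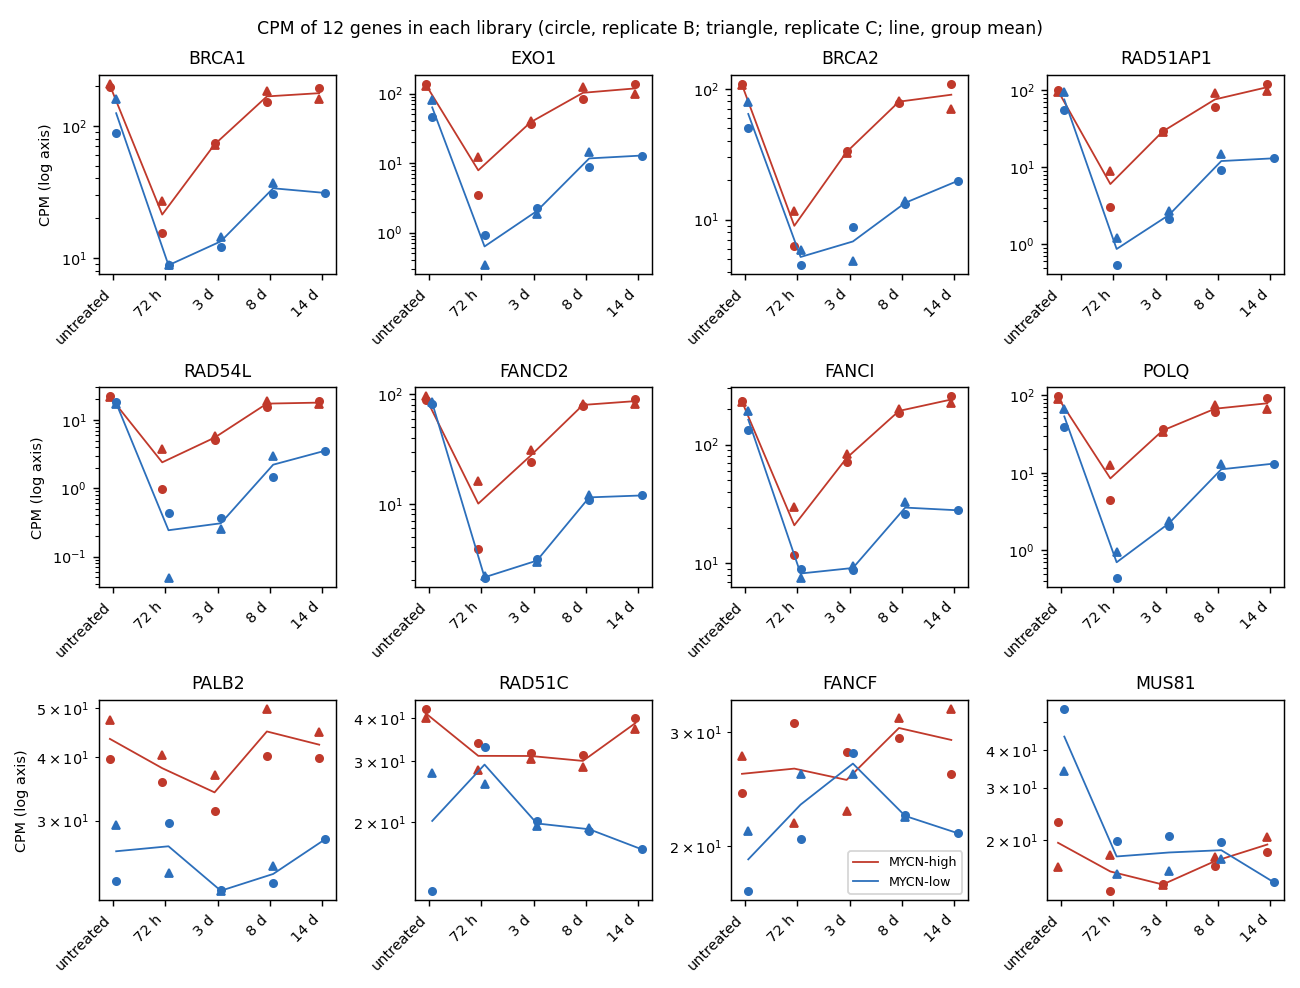
CPM (y axis, log scale, different in each panel) of 12 of the genes in every library, with circles for replicate B, triangles for replicate C and lines through the group means, MYCN-high in red and MYCN-low in blue. The upper 8 genes are lower at 72 h in both states and at 14 days in MYCN-low cells. Under ERCC scaling none of the 8 is called, and none of their MYCN-high changes at 72 h has the opposite sign. At 3 days those of BRCA1 (0.15) and POLQ (0.21) do. PALB2, RAD51C and FANCF run from 21.8 to 49.7, 12.6 to 42.4 and 17.03 to 32.5 CPM, and MUS81 starts higher in MYCN-low cells, at 55.00 and 34.1 against 22.9 and 16.2 CPM.

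Recovery was followed by the count of genes still below the untreated level. In MYCN-high cells 26 genes were still lower than in untreated cells at 3 days (15.7% of all genes), 1 at 8 days (4.09%) and 0 at 14 days (0%), and the median change went from -1.49 to -0.33 and -0.09. At 14 days 0 of the 33 passed edgeR's threshold or that of the DESeq2 Wald test, and 0 had an unadjusted p under 0.05. In MYCN-low cells 29 genes were lower at 3 days (12.7% of all genes), 26 at 8 days (14.6%) and 24 at 14 days (10.7%). The medians were -3.16, -2.18 and -2.05. The same 24 genes were lower at all 4 times, an overlap that was not counted over all genes. No gene of the 33 was called higher than untreated at any time in either state (15.1%, 4.49% and 0% of all genes in MYCN-high and 10.5%, 10.2% and 7.63% in MYCN-low cells were). Under ERCC scaling 11 of the 26 genes called at 3 days in MYCN-high cells had a change above 0, as did 18 of the 33. All 33 were then above 0 at 8 days, with a median of 0.72 in place of -0.33. All 33 were below 0 at 14 days, and the median of all genes moved to 1.62, 1.14 and -1.07 at these times. Leaving out 1 library at a time gave 21 to 23 genes at 3 days in MYCN-high cells, 25 to 28 and 24 to 27 at 3 and 8 days in MYCN-low cells, and 23 and 26 at 14 days.

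**Figure D3:**
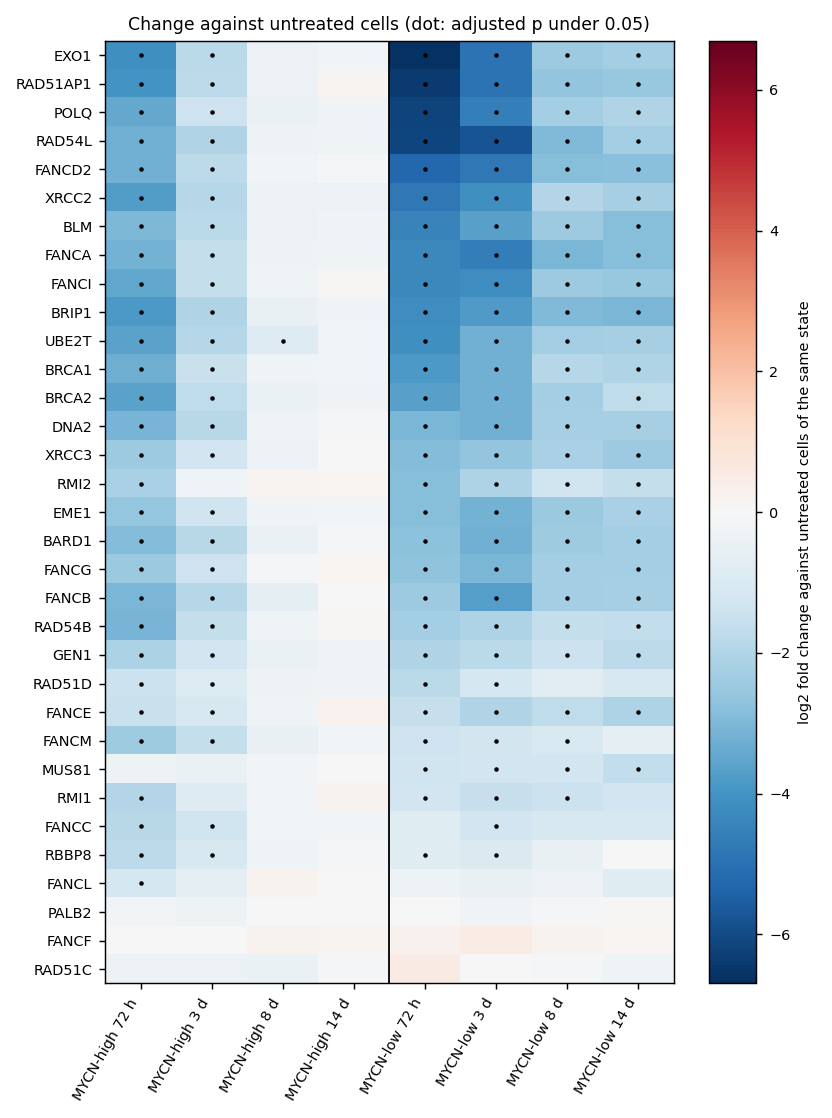
Log2 fold change against untreated cells of the same state (colour scale, blue lower and red higher) for the 33 genes (rows) at 72 h and at 3, 8 and 14 days in MYCN-high (left of the line) and MYCN-low cells (right), with dots where the adjusted p was under 0.05. Dots fill 29, 26, 1 and 0 rows in MYCN-high and 28, 29, 26 and 24 rows in MYCN-low cells; with ERCC scaling no dot remains and the sign changes for 8, 11 and 1 of the MYCN-high calls at 72 h, 3 days and 8 days.

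Taking the steps themselves, 13 genes rose and 0 fell between 72 h and 3 days in MYCN-high cells (1.71% and 0.0879% of all genes). Between 3 and 8 days 19 rose and 0 fell (6.63% and 6.42%). Of the 33 genes 11 rose in both steps and 21 in at least 1, overlaps that were not counted over all genes. The largest first step was that of EXO1 (2.31 ± 0.45), and GEN1, which was also called, had a step below 0 under ERCC scaling (-0.0845). Between 8 and 14 days 0 rose and 0 fell (1.23% and 1.35% of all genes) by edgeR and by the DESeq2 Wald test, with 1 gene under an unadjusted p of 0.05. In MYCN-low cells 0 rose and 0 fell between 72 h and 3 days (0.00676% and 0.0473% of all genes) by either tool, with 8 genes under an unadjusted p of 0.05. Then 6 rose and 0 fell between 3 and 8 days (0.662% and 0.0406%), namely BRCA1, EXO1, XRCC2, RAD51AP1, FANCI and POLQ. Between 8 and 14 days 0 rose and 0 fell by either tool (0.0135% and 0%), with 0 under an unadjusted p of 0.05. A difference in the steps between the states was not tested. These counts rest on single libraries, and the counts over all genes also fell in most of the fits that leave 1 library out. The first MYCN-high step gave 0 genes without replicate B at 72 h or without replicate C at 3 days, 4 without replicate B at 3 days and 20 without replicate C at 72 h. The second gave 1 without replicate B at 3 days or replicate C at 8 days and 3 without replicate C at 3 days. The MYCN-low step from 3 to 8 days gave 0 without either replicate at 3 days or replicate C at 8 days. At 72 h replicate C of the MYCN-high cells had the higher level for 27 of the 33 genes, by a median of 0.85 on the log2 scale, and its mean level of 25 G2 and mitosis genes was also the higher one, 4.84 against 3.02 as log2(CPM + 1). The part of that gap in the step counts was not tested.

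The order of return was described as the share of each gene's log2 fall at 72 h that had been regained. Over the 29 genes that fell in MYCN-high cells the median share was 47% at 3 days, 89.3% at 8 days and 94.9% at 14 days. At 3 days the share was 86.7% for RMI2, which rested on 37 reads in each library at 72 h, 59.5% for POLQ, 56.5% for RAD51AP1 and 56.4% for EXO1, and 8 genes were past 50%. FANCE (27.8%), FANCC (28.7%), FANCM (33.1%) and BARD1 (35.4%) had regained least at that time. By 8 days the shares ran from 76.5% (RAD51D and UBE2T) to 119% (FANCL). Over the 28 genes that fell in MYCN-low cells the median was 9.18% at 3 days, 33.8% at 8 days and 38.6% at 14 days. There POLQ (63.8%), EXO1 (63.3%), RAD51AP1 (58.9%) and XRCC2 (58.6%) had regained most at 8 days, and RMI1 (-13.2%) and FANCE (-11.7%) were below their level at 72 h. The falls of POLQ, EXO1 and RAD51AP1 rested on 7 to 25 reads per MYCN-low library at 72 h. At 14 days RBBP8 reached 101% and FANCE -33.5%. These shares are ratios of fitted values, have no test of their own, were not recomputed without single libraries, and at 14 days in MYCN-low cells rest on 1 library.

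**Figure D4:**
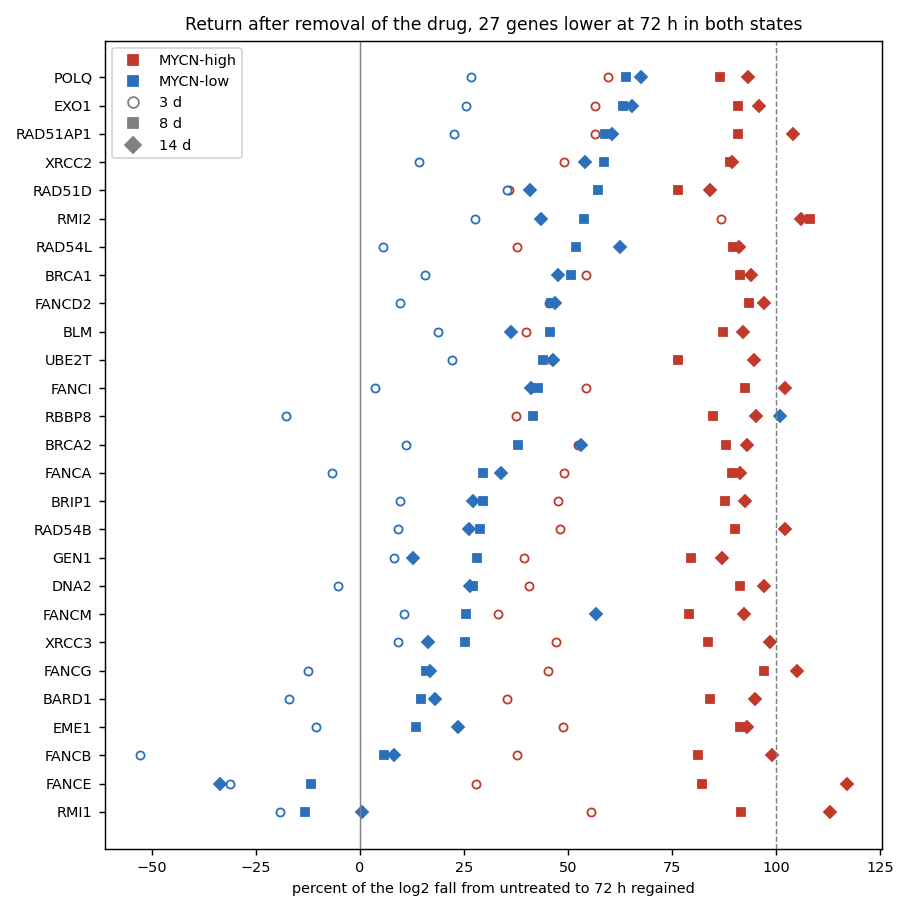
Percent of the log2 fall at 72 h regained (x axis) at 3 days (open circles), 8 days (squares) and 14 days (diamonds) for the 27 genes lower at 72 h in both states, ordered by the MYCN-low share at 8 days; MYCN-high in red, MYCN-low in blue, dashed line at 100%. MYCN-high squares start at 76.5% (RAD51D and UBE2T), while MYCN-low squares run from -13.2% (RMI1) to 63.8% (POLQ).

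Compared directly, MYCN-high cells held more of 12 messages at 72 h (15.5% of all genes), of 25 at 3 days (17%), of 29 at 8 days (23.4%) and of 29 at 14 days (21.4%), and less of 0 at each time (14.4%, 14.8%, 20.5% and 20.5% of all genes). The median log2 differences were 0.51, 1.93, 1.93 and 2.29, and 25 genes were higher at all of 3, 8 and 14 days. In MYCN-low cells the falls at 72 h had been the larger ones for 19 of the 27 genes lower in both. The difference between the responses was called for 5 genes at 72 h, EXO1, RAD51AP1, RAD54L, FANCD2 and POLQ (6.63% of all genes). It was called for 15 at 3 days (5.1%), 19 at 8 days (4.41%) and 17 at 14 days (4.87%). The smaller fall was in MYCN-high cells each time, and 0 genes were called in the other direction (4.06%, 2.48%, 1.94% and 2.53%). In all, 23 genes were called at 1 time or more and 10 at each of 3, 8 and 14 days. Counts over several times, here and for the 25 genes above, were not made for all genes. The direct and the difference comparisons share their treated libraries with the responses above. Relative to the median of all genes, the median difference between responses of the 33 genes was 0.22, 1.31, 1.56 and 1.76 at the 4 times with TMM scaling. Under ERCC scaling it was -0.18, 1.42, 1.66 and 1.99. MUS81 at 14 days and PALB2 in the direct comparison at 14 days changed sign under ERCC scaling, to -0.22 and -0.25.

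Single libraries decided many of these calls. At 72 h the count of 5 became 10 without MYCN-high replicate B at 72 h and 0 without MYCN-high replicate C at 72 h. It was 2 without MYCN-low untreated replicate B or replicate C at 72 h, and 1 without either untreated MYCN-high replicate or MYCN-low replicate B at 72 h. At 3 days the count of 15 became 8 without either untreated MYCN-high replicate, either MYCN-high replicate at 3 days or MYCN-low replicate B at 3 days, and 9 without MYCN-low replicate C at 3 days. At 8 days the count of 19 became 3 without MYCN-low replicate B, 4 and 5 without untreated MYCN-high replicates B and C, 5 without MYCN-high replicate C and 12 without MYCN-low replicate C. At 14 days the count of 17 became 7 without either untreated MYCN-high replicate, and 9 and 11 without MYCN-high replicates B and C at 14 days. Called in every one of these fits at 3 days were EXO1, RAD51AP1, RAD54L, FANCA, FANCD2, FANCI and POLQ. At 8 days FANCA, FANCG and BRIP1 were, at 14 days RAD54B, GEN1, FANCG, FANCI, UBE2T and BRIP1, and at 72 h no gene.

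Of 46 further genes from these 2 pathways 44 could be tested, and they divided. At 72 h 22 were lower and 5 higher in MYCN-high cells (median -0.78), against 17.9% and 18.3% of all genes. In MYCN-low cells 21 were lower and 3 higher (median -0.62), against 12.1% and 10.2%. MND1, known for its part in meiotic recombination, changed by -3.86 ± 0.33 in MYCN-high and -4.73 ± 0.38 in MYCN-low cells. MCM8, a helicase of repair synthesis, changed by -2.81 ± 0.23 and -3.104 ± 0.24, and PARPBP, which restrains recombination, by -2.64 ± 0.205 and -2.79 ± 0.21. At 8 days 1 was lower and 0 higher in MYCN-high cells, against 4.09% and 4.49% of all genes. The lower gene was RFWD3, a ubiquitin ligase that clears RPA from lesions (-0.700 ± 0.18). In MYCN-low cells 21 were lower and 0 higher at 8 days, against 14.6% and 10.2% of all genes. Of 18 end joining genes 9 were lower and 2 higher at 72 h in MYCN-high cells (median -0.53), and 6 were lower and 1 higher in MYCN-low cells (median -0.31), beside the same shares of all genes. PARP1 changed by -1.09 ± 0.15 and -0.92 ± 0.15, and APLF, a scaffold of end joining, rose by 0.88 ± 0.21 in MYCN-low cells. Of 33 DNA replication genes 32 were lower at 72 h in each state (medians -2.94 and -3.09), and of 25 G2 and mitosis genes 25 were (medians -3.95 and -6.68). At 14 days 0 of the genes of these 4 lists were called in MYCN-high cells by edgeR, as were 0 of all tested genes. In MYCN-low cells 15 of 44, 7 of 18, 31 of 33 and 25 of 25 were lower, against 10.7% of all genes. The end joining genes went both ways there, with 3 of 18 higher, against 7.63% of all genes and 0 in the other 3 lists.

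**Figure D5:**
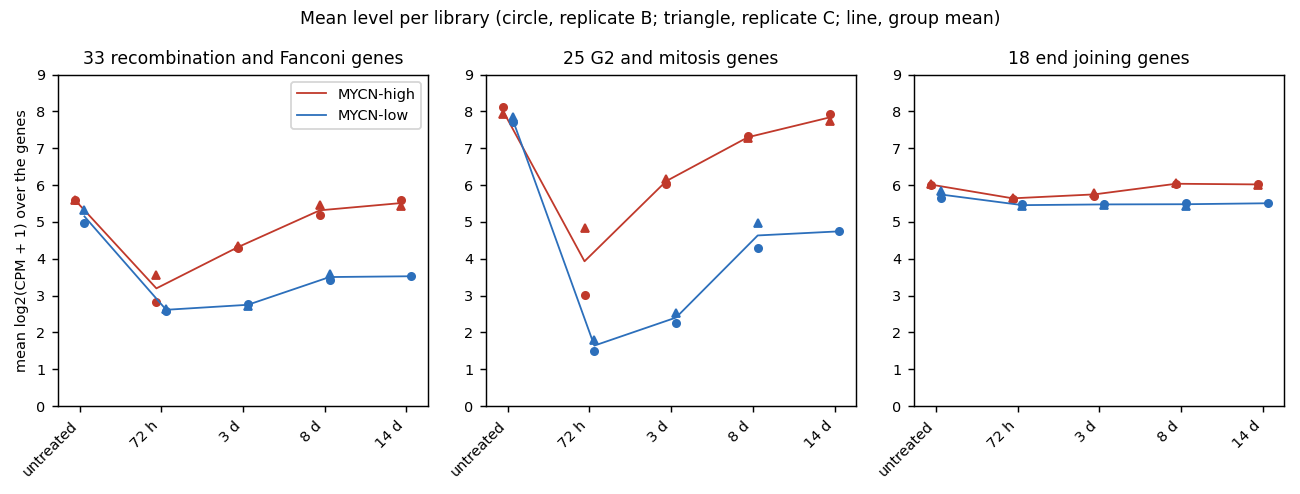
Mean log2(CPM + 1) per library (y axis) over the 33 genes, 25 G2 and mitosis genes and 18 end joining genes, with circles for replicate B, triangles for replicate C and lines through the group means; MYCN-high in red, MYCN-low in blue. The 33 genes go from 5.60 and 5.61 to 2.83 and 3.56 at 72 h in MYCN-high cells and stand at 3.53 in the MYCN-low library at 14 days, the mitosis genes show a deeper drop, and the end joining genes stay between 5.42 and 6.05.

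The responses of the 33 genes at 72 h ran in nearly the same order in both states, with a Pearson r of 0.87 and a Spearman rho of 0.90 over the 33 genes, which share their libraries and are not independent. The tested genes outside the list whose log2 CPM over the 19 libraries was most like the mean profile of the 33 were WDHD1 (r = 0.9937), TMPO (0.9923), MCM8 (0.9917), TMEM194A (0.9917) and MAD2L1 (0.9913), a description over libraries that share the 10 groups. Least like that profile among the 33 were FANCF (r = 0.20), MUS81 (0.32), RAD51C (0.45) and PALB2 (0.69). In the GENCODE 29 annotation exons of 11 of the genes overlap exons of another protein-coding gene of the table, including 5756 bases of XRCC3 with KLC1, 3139 bases of RAD54B with FSBP, 2302 bases of FANCA with ZNF276 and 759 bases of MUS81 with CFL1. The others are RAD51D, RAD54L, EME1, GEN1, FANCF, FANCL and FANCI. The strand setting of the counting is not given in the sources used here, so the values of these 11 genes are uncertain. For RAD54B, and for RAD51D with 905 bases of RAD51L3-RFFL, the overlap is on the same strand, where no strand setting would separate the reads.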

How the data were processed

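Counts, not reads, were the starting point. The deposited table holds raw read counts per gene symbol for 19 libraries, whole numbers with a different sum in each. The submitters' processing notes name STAR 2.4.0h1, HTSeq and hg19. The annotation and strand setting are not given in the sources used here. Per the labels' protocols, ERCC control RNA was added before processing and ribosomal RNA was removed, while the labels' molecule field names polyA RNA.

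With edgeR 4.0.16 in R 4.3.3, the 92 ERCC rows were removed, filterByExpr left 14793 genes, libraries were scaled by TMM, and 1 quasi-likelihood fit with a coefficient per group gave 23 contrasts. Each contrast was adjusted over all tested genes by the Benjamini-Hochberg method at 0.05. With 9 residual degrees of freedom, the fit assumes that the 1 library of MYCN-low cells at 14 days varies like the other groups. CPM values are TMM-scaled. Standard errors are approximate, the log2 fold change divided by the root of F. The procedure was also run on simulated counts in which few genes changed, in both directions, a setting that does not test the scaling of the real libraries. Total counts ran from 16547663 to 27664604, and 2 libraries per group limit the precision.

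Genes, lists and comparisons were chosen with earlier results of these data known. Values for every library are given for the 2 genes of each role with the largest mean CPM, those called in a difference between responses, and those not called lower at 72 h in a state. Alternatives were DESeq2 1.42.0 size factors and Wald test, no filter, ERCC scaling, a replicate block and leaving out each library. Exon overlaps come from GENCODE 29. Some further list genes are not reported here.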

Additional observations from a re-analysis of the deposited data

Results flagged for a closer look

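The responses to doxorubicin of the MYCN states differed, by edgeR's test of the difference itself, for 23 of the 33 genes at 1 time or more. Each value below is the log2 change against untreated cells in MYCN-high cells minus that in MYCN-low cells, and all are above 0, so the fall was the smaller one in MYCN-high cells. At 72 h and 3, 8 and 14 days, 22, 25, 23 and 21 of 25 G2 and mitosis genes were also called above 0. Of 33 DNA replication genes 4, 20, 20 and 21 were. Below 0 were 2 DNA replication genes and 0 G2 and mitosis genes at 72 h, and 0 of both lists later. Of all tested genes 6.63%, 5.1%, 4.41% and 4.87% were called above 0 at the 4 times, and 4.06%, 2.48%, 1.94% and 2.53% below 0. The count at 1 time or more was not made for all genes.

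At 72 h 5 genes were called, with RAD54L 2.95, EXO1 2.55 and RAD51AP1 2.405 among recombination genes and POLQ 2.77 and FANCD2 2.08 among Fanconi and end joining genes. None of these 5 calls held without each library in turn. The MYCN-low libraries at 72 h held 1 to 25 reads of RAD54L, EXO1, RAD51AP1 and POLQ. At 3 days 15 genes were called. The recombination genes were RAD54L 3.82, RAD51AP1 3.22, EXO1 3.16, XRCC2 2.22, BLM 1.82, RMI2 1.79, BRCA1 1.74 and BRCA2 1.53. The Fanconi and end joining genes were POLQ 3.17, FANCD2 3.03, FANCA 3.000, FANCI 2.57, BRIP1 1.76, FANCG 1.69 and UBE2T 1.29.

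At 8 days 19 genes were called. Among recombination genes the differences were RAD54L 2.63, RAD51AP1 2.28, EME1 2.25, BLM 2.04, DNA2 1.94, BARD1 1.903, BRCA2 1.83, XRCC3 1.78, BRCA1 1.61, RMI2 1.495, RAD54B 1.302 and GEN1 0.999. Among Fanconi and end joining genes they were FANCA 2.702, FANCD2 2.65, BRIP1 2.46, FANCG 2.21, FANCI 2.198, POLQ 1.79 and UBE2T 1.47. At 14 days 17 genes were called, in a comparison in which the MYCN-low group is 1 library. Recombination genes had RAD51AP1 2.69, BLM 2.601, XRCC3 2.398, DNA2 2.15, BARD1 2.12, BRCA1 1.81, RMI2 1.75, RAD54B 1.75, MUS81 1.61 and GEN1 1.46. Fanconi genes had BRIP1 2.75, FANCD2 2.71, FANCI 2.596, FANCA 2.58, FANCG 2.38, FANCE 2.296 and UBE2T 2.01.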

How the results depend on the processing

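The DESeq2 size factors and Wald test, no filter and the replicate block changed no direction. With the replicate letter as a block, the replicate block gave 29, 28, 1 and 0 lower genes in MYCN-high and 28, 29, 26 and 25 in MYCN-low cells at 72 h and 3, 8 and 14 days, 5, 15, 21 and 17 differences between responses, and steps of 15, 21 and 7 genes. The labels do not say that the letters pair samples. Over 36 pairs of groups the deviations of same-letter libraries correlated at -0.21 to 0.32, with 22 over 0.1, which does not settle whether the letters mark anything shared. Of the 759 tests of 1 gene in 1 comparison, the block added 17 calls and removed 1.

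ERCC scaling left 0 of the 33 genes called in each of the comparisons, and 0 to 70 of all genes. It turned the sign at 72 h in MYCN-high cells for RBBP8 (0.71), RAD51D (0.64), RMI1 (0.57), RMI2 (0.17), GEN1 (0.37), FANCE (0.41), FANCL (1.06) and FANCM (0.15). At 3 days it did so for BRCA1 (0.15), RBBP8 (0.50), RAD51D (0.80), XRCC3 (0.30), RAD54B (0.0399), EME1 (0.0125), GEN1 (0.28), FANCC (0.30), FANCE (0.45), FANCG (0.27) and POLQ (0.21). It did so for UBE2T at 8 days (0.24), PALB2 between the states at 14 days (-0.25), MUS81 in the difference at 14 days (-0.22) and GEN1 in the first step (-0.0845). The cause was not tested, and ERCC reads differed between duplicates. Without MYCN-low untreated replicate C, RAD51C was called at 3 and 8 days with changes of 0.63 and 0.62, which became -0.48 and -0.54 without replicate B.

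With no filter the differences at 72 h numbered 10, the MYCN-high steps 22 (first) and 1 (last), and the MYCN-low steps 4 and 16, the latter being 10 by the Wald test. On log2(CPM + 1), 5 and not 8 genes passed 50% regained at 8 days in MYCN-low cells. Leaving out 1 library gave 0 genes lower at 8 days in MYCN-high cells, 2 to 14 higher in untreated MYCN-high cells, 0 to 10, 8 to 14, 3 to 17 and 7 to 18 differences between responses at the 4 times, and 0 to 20, 1 to 16 and 0 to 7 genes in the MYCN-high first and second and the MYCN-low second step.

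Over all genes, the Wald test and no filter raised the calls at 8 days in MYCN-high cells from 1269 to 2031 and 2080, at 14 days from 0 to 68 and 309, and the differences between responses from 1581 to 2418 and 2627, 1122 to 1786 and 2079, 939 to 1625 and 1931, and 1096 to 1761 and 1973. The steps went from 266 to 440 and 691 and 382 to 876 and 1071 in MYCN-high cells, and from 8 to 96 and 289, 104 to 205 and 373, and 2 to 16 and 70 in MYCN-low cells. Depth limits RAD54L most, at 1 to 9 reads in 4 MYCN-low libraries.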
